A study of Cucumis sativus with 2 samples.

Results

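Auxin (indole-3-acetic acid, IAA) is the plant hormone whose uneven distribution across an organ is known to drive differential growth and bending. In Arabidopsis, TAA/TAR aminotransferases and YUCCA flavin monooxygenases make IAA from tryptophan, with YUCCA enzymes carrying out the last step. AUX/LAX permeases carry it into cells, PIN proteins and ABCB pumps carry it out, and the kinases PID, WAG and D6PK phosphorylate PIN proteins. PILS proteins hold auxin at the endoplasmic reticulum, GH3 enzymes join it to amino acids, and DAO1 oxidises it.

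The genes described here are the cucumber (Cucumis sativus) genes whose listed Arabidopsis homologue is 1 of 50 loci of auxin synthesis, transport, conjugation and oxidation. They number 47 of the 20700 genes in the deposited read table and carry 27 of the 50 loci, so several loci have more than 1 cucumber copy. Poly(A) RNA was sequenced from bending fruit on day 2 after anthesis, with 1 library of the ventral and 1 of the dorsal side. The labels name no cultivar, genotype or treatment, and give no number of fruits per library. Gene names below are those of the Arabidopsis homologue, roles are those known in Arabidopsis, and the cucumber identifier marks the copy.

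The ventral library held 21863715 reads and the dorsal library 11893394, and no difference between them has a replicate check, a p-value or a standard deviation. Ratios are ventral over dorsal reads after scaling by the trimmed mean of M values (TMM), and each interval is an exact 95% counting interval on the log2 scale. A gene is called ventral-high or dorsal-high when its level was 2-fold or more higher in that library and the counting interval left out a ratio of 1. This describes the 2 libraries, not cucumber fruit in general. Levels are the authors' deposited RPKM, reads scaled for exonic length and depth, and RPKM ratios run 0.26 (log2) above the TMM-scaled ones. Ratios rose with exonic length over all genes, except among the shortest. The median log2 ratio was -0.30 in the shortest of 10 length bins and -0.53 in the next. Calls that depend on this length trend are also given with the trend removed. In these bulk samples fewer cells of a type and less RNA per cell cannot be told apart.

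No defining marker of the ventral or the dorsal side of a cucumber fruit was at hand, so the labelled side could not be checked. The marker counts below stand beside 13.2% ventral-high and 11.5% dorsal-high of all 17462 genes with at least 20 reads over both libraries. Of the 5 measured green-tissue genes (light-harvesting and photosystem genes), 0 were ventral-high and 2 dorsal-high. Their summed RPKM was 3859 ventral and 8948 dorsal, and the 2 dorsal-high copies, of LHCB1.3 and PSBW, made up most of that gap. LHCA1 (Csa5G490820) and PSAF (Csa1G714680) had log2 ratios of -0.44 and -0.39, or -0.12 and -0.09 with the length trend removed. Of 5 measured xylem genes 0 were ventral-high and 3 dorsal-high, and RPKM summed over all 7 copies was 29.0 ventral and 60.4 dorsal. The xylem gene CESA4 (Csa6G088080) went the other way as counted, at a log2 ratio of 0.53 (0.18 to 0.90), and was at -0.22 with the length trend removed. Of 19 phloem copies 1 was ventral-high and 3 dorsal-high, and summed RPKM was 7233 ventral and 7964 dorsal. Of 8 measured epidermis copies 1 was ventral-high and 2 dorsal-high, and RPKM summed over all 11 copies was 86.7 ventral and 66.7 dorsal. The 3 measured procambium and 3 measured ovule copies held none called either way. Summed RPKM was 51.5 ventral and 47.0 dorsal for procambium, and 46.3 ventral and 50.5 dorsal for ovule and seed coat. All 3 measured ovule copies were homologues of ANT, and the INO and TT8 copies fell below 20 reads. The ovule and seed coat sum is therefore almost wholly that of ANT. In the stomatal lineage 1 of 2 measured genes, FAMA (Csa3G131940), was dorsal-high, and RPKM summed over all 4 genes was 6.62 ventral and 7.32 dorsal. Copies of CER1 (Csa3G708180), INO (Csa2G348870), TMM, the receptor-like protein gene (Csa4G006190), and XCP1 (Csa3G131910) had 1, 1, 6 and 1 ventral reads and 0 dorsal reads. Removing the length trend took the calls of FAMA, then at -0.87, and of 1 dorsal-high phloem copy. The part of these marker differences in the results below was not tested.

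Of the 47 auxin genes 36 had at least 20 reads over both libraries and are called measured, and 11 fell below. Among the 36, 7 were ventral-high, 4 dorsal-high and 25 neither. That is 19.4% ventral-high and 11.1% dorsal-high, beside 13.2% and 11.5% of all 17462 measured genes. The median log2 ratio of the 36 was 0.17, against 0.01 for all measured genes, and single values ran from -3.24 to 3.47. The pooled reads of all 47 genes, 20295 ventral and 9270 dorsal, gave a log2 ratio of 0.02, with an interval of -0.02 to 0.06. The ventral-high share lay above the background as counted and below it with the length trend removed. The dorsal-high share lay near the background as counted and above it with the trend removed. These shares change with the length trend, so no common direction is read from them, and the contrasts described below are between copies and families. With the length trend removed, 2 were ventral-high and 6 dorsal-high, or 5.56% and 16.7%, beside 10.9% and 8.34% of all measured genes, and the median was 0.0075.

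**Figure D1:**
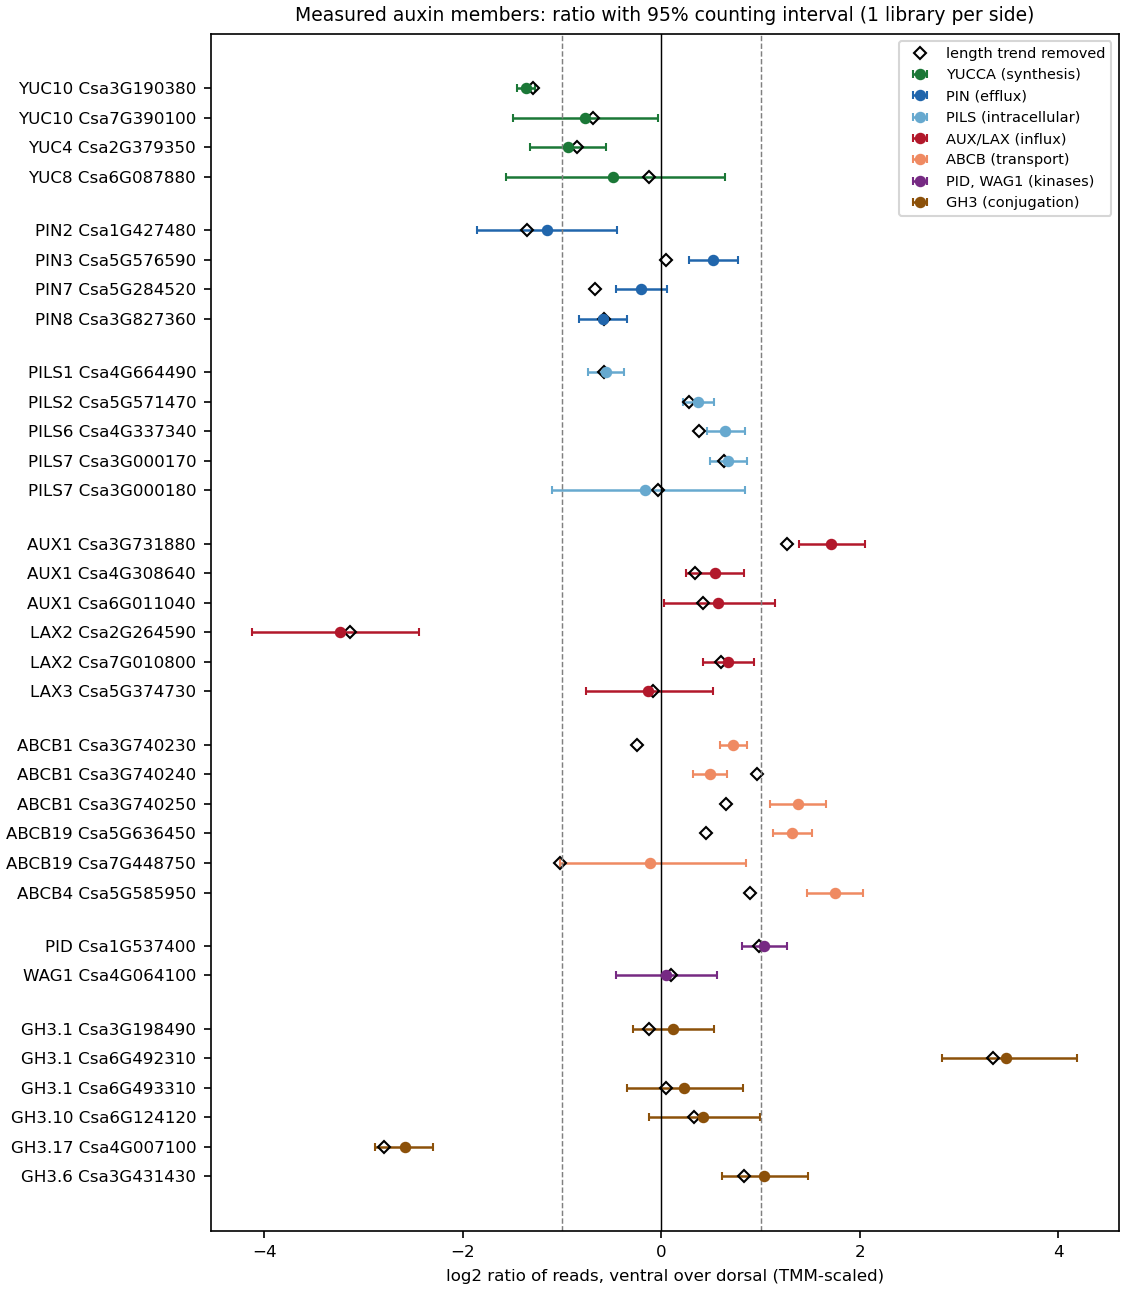
The log2 ratio of reads, ventral over dorsal, is plotted for 33 of the 36 measured auxin genes by family, with bars for the 95% counting interval and open diamonds for the ratio with the length trend removed; dashed lines mark 2-fold. GH3.1 (Csa6G492310) lies farthest to the ventral side at 3.47 and LAX2 (Csa2G264590) farthest to the dorsal side at -3.24.

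No gene carried a TAA/TAR locus, and the first step of the pathway was not analysed here. Among YUCCA copies, which make IAA from indole-3-pyruvate, all 4 measured ones had ratios below 1, and 1 of them was dorsal-high. Of all 17462 measured genes 8648 had ratios below 1, and 11.5% were dorsal-high. The dorsal-high YUCCA copy was a homologue of YUC10 (AT1G48910; Csa3G190380, chromosome 3), known in Arabidopsis for expression in the endosperm. It had 1951 ventral and 2321 dorsal reads, or 58.4 RPKM ventral and 125 RPKM dorsal. It was 2.57-fold higher in the dorsal library (log2 -1.36, interval -1.45 to -1.27), and -1.29 with the length trend removed. It had the highest RPKM of the 47 auxin genes in the dorsal library, at or above 93.6% of all measured genes there and 85.8% in the ventral library.

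This copy held 90.4% of YUCCA reads in the ventral library (exact Clopper-Pearson 95% interval 89.1 to 91.6) and 93.4% in the dorsal library (92.4 to 94.3). The pooled YUCCA log2 ratio of -1.31, from 2158 ventral and 2485 dorsal reads, is therefore mostly that of 1 gene. YUC4 (Csa2G379350, chromosome 2), active in Arabidopsis leaves and flowers, had 125 ventral and 111 dorsal reads, 3.82 and 6.07 RPKM in the ventral and dorsal library, and a log2 ratio of -0.94 (-1.32 to -0.56), short of 2-fold. The second YUC10 copy (Csa7G390100, chromosome 7) had 38 ventral and 30 dorsal reads and a log2 ratio of -0.77 (-1.50 to -0.03). YUC8 (Csa6G087880, chromosome 6) had 20 ventral and 13 dorsal reads, and its interval of -1.57 to 0.64 included a ratio of 1. All 4 ratios were also below 1 with DESeq2 size factors, with total reads and with the length trend removed. With the trend removed the intervals of Csa7G390100 (-1.42 to 0.05) and Csa6G087880 (-1.20 to 1.01) both included a ratio of 1.

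The other 4 YUCCA copies were close to the detection limit. YUC11 (Csa6G396640) had 8 ventral and 3 dorsal reads. The YUC6 copies had 7 ventral reads and 1 dorsal read (Csa1G242600) and 3 ventral and 6 dorsal reads (Csa2G375750). The YUC8 copy Csa6G087870, whose identifier is next to that of Csa6G087880 in the table, had 6 ventral and 0 dorsal reads. Since 0 reads are compatible with as many as 3, or 0.252 CPM in the dorsal library, a difference could not be detected for it at this depth.

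AUX/LAX permeases, the auxin influx carriers, held copies called in opposite directions. AUX1 (AT2G38120; Csa3G731880, chromosome 3), named for the Arabidopsis carrier needed for root gravitropism, had 630 ventral and 89 dorsal reads, at 11.1 RPKM ventral and 2.85 RPKM dorsal. It was 3.28-fold higher in the ventral library (log2 1.71, interval 1.39 to 2.05), and 2.41-fold with the length trend removed. LAX2 (AT2G21050; Csa2G264590, chromosome 2), whose Arabidopsis homologue acts in vein patterning, had 16 ventral and 70 dorsal reads, at 0.50 RPKM ventral and 3.88 RPKM dorsal. It was 9.45-fold higher in the dorsal library (log2 -3.24, interval -4.12 to -2.44), and 8.81-fold with the length trend removed. These ventral and dorsal extremes come from copies of different loci, and LAX2 rests on few reads.

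The second LAX2 copy (Csa7G010800, chromosome 7), the most abundant influx carrier on the mean of both libraries, went the other way from the first. It had 548 ventral and 159 dorsal reads, 14.2 RPKM ventral and 7.48 RPKM dorsal, and a log2 ratio of 0.67 (0.42 to 0.94), short of 2-fold. The intervals of the LAX2 pair do not overlap, and the comparison of copies within a library does not depend on how the libraries are scaled. The first copy took 0.88% of AUX/LAX reads in the ventral library (0.51 to 1.43) and 13.3% in the dorsal library (10.5 to 16.5), whereas the second took 30.3% in the ventral (28.1 to 32.4) and 30.3% in the dorsal library (26.4 to 34.4). The other AUX1 copies, Csa4G308640 with 420 ventral and 134 dorsal reads and Csa6G011040 with 119 and 37, had log2 ratios of 0.54 and 0.57, short of 2-fold. LAX3 (Csa5G374730), an influx carrier of lateral root emergence, had 65 ventral and 33 dorsal reads and a log2 ratio of -0.13 (-0.76 to 0.52). The AUX1 copy Csa5G201310 had 13 ventral and 3 dorsal reads, too few to be measured.

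**Figure D2:**
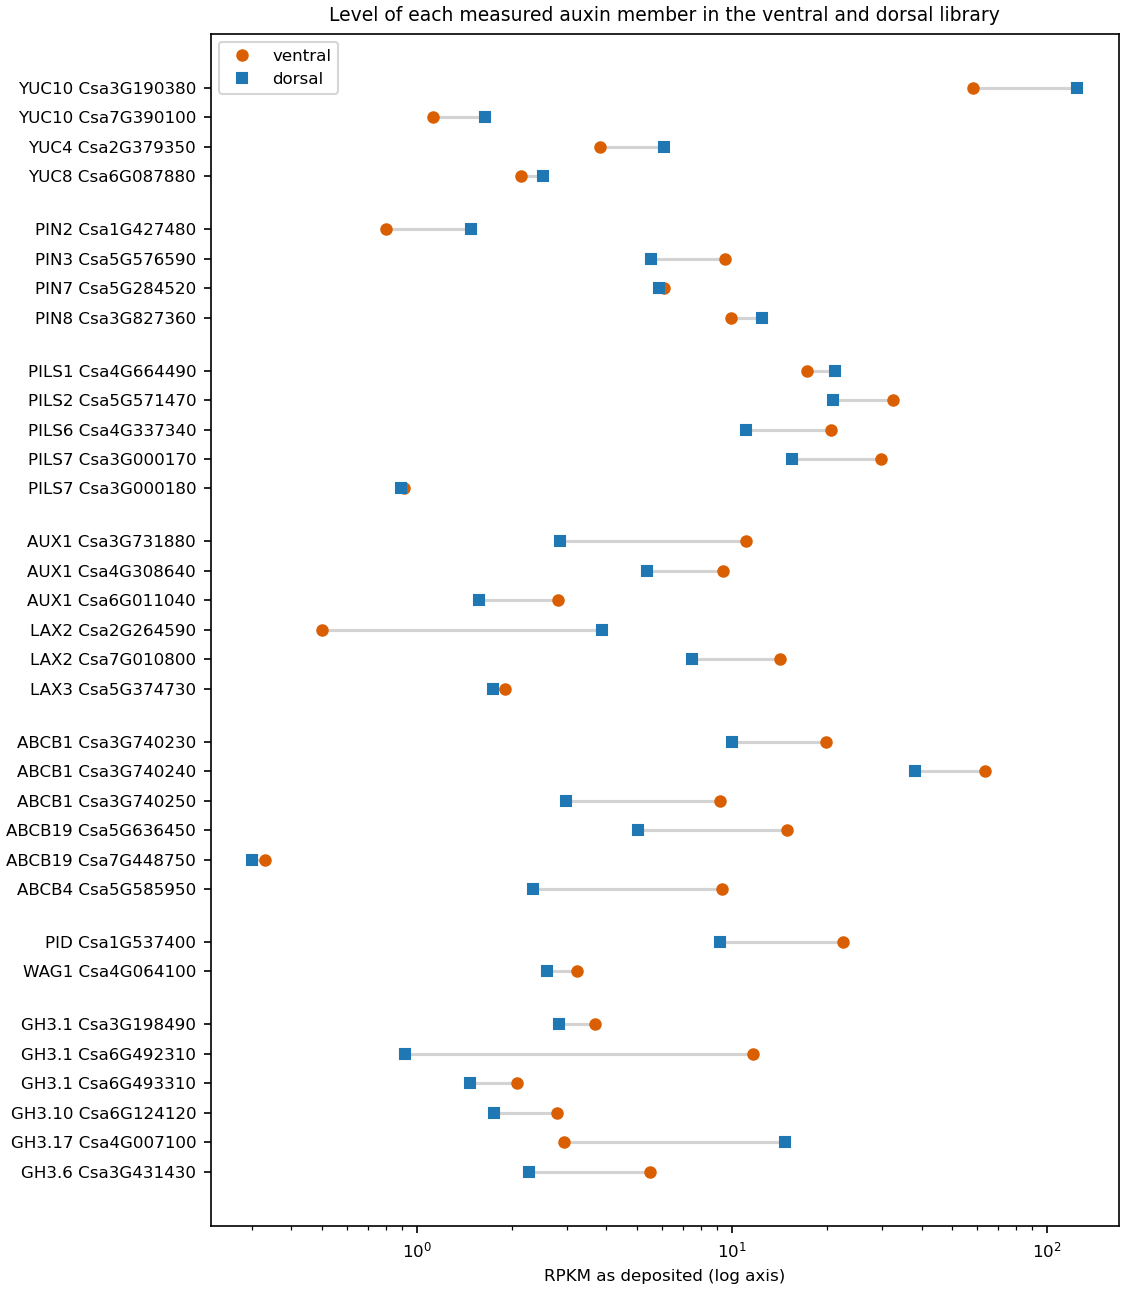
Deposited RPKM on a log axis is plotted for 33 of the 36 measured auxin genes, with a circle for the ventral and a square for the dorsal library joined by a line. The longest lines belong to GH3.1 (Csa6G492310), with 11.7 RPKM ventral and 0.92 dorsal, and to LAX2 (Csa2G264590), with 0.50 ventral and 3.88 dorsal.

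PIN proteins are efflux carriers that set the direction of auxin flow. PIN2 (AT5G57090; Csa1G427480, chromosome 1), the root gravitropism carrier of Arabidopsis, was dorsal-high at the low level of 0.80 RPKM ventral and 1.49 RPKM dorsal. Its 36 ventral and 37 dorsal reads gave a ratio 2.22-fold higher in the dorsal library (log2 -1.15, interval -1.85 to -0.45), which was short of 2-fold, at -0.92, with total reads. PIN3 (Csa5G576590, chromosome 5), a carrier that redistributes auxin sideways in tropic bending, had 555 ventral and 179 dorsal reads. Its log2 ratio was 0.52 (0.28 to 0.77), short of 2-fold, and 0.05 with the length trend removed. PIN7 (Csa5G284520), a close relative of PIN3, had 355 ventral and 189 dorsal reads and a log2 ratio of -0.20 (-0.46 to 0.06), and -0.66 with the length trend removed. PIN3 took 14.3% of PIN reads in the ventral library (13.2 to 15.5) and 7.37% in the dorsal library (6.36 to 8.48). PIN8 (Csa3G827360), which sits at the endoplasmic reticulum in Arabidopsis pollen, had 352 ventral and 245 dorsal reads and a log2 ratio of -0.59 (-0.83 to -0.35). The PIN2 copy Csa2G074260 had 4 ventral reads and 1 dorsal read.

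ABCB pumps, a group of long auxin-transporting membrane proteins, had 3 of 6 measured copies ventral-high and 0 dorsal-high as counted, with a family median of 1.02. Over all measured genes the shares were 13.2% and 11.5%, and the longest of 10 length bins had a median log2 ratio of 0.74. With the length trend removed 0 ABCB copies were ventral-high and 1 dorsal-high, with a median of 0.55, beside 10.9% and 8.34% of all measured genes. ABCB4 (AT2G47000; Csa5G585950, chromosome 5) had 847 ventral and 117 dorsal reads, at 9.34 RPKM ventral and 2.34 RPKM dorsal. It was 3.35-fold higher in the ventral library (log2 1.75, interval 1.46 to 2.04). ABCB19 (AT3G28860; Csa5G636450, chromosome 5), a pump of long-distance stem transport, had 1383 ventral and 257 dorsal reads and was 2.49-fold higher (log2 1.32, interval 1.12 to 1.52). ABCB1 (AT2G36910; Csa3G740250, chromosome 3) had 710 ventral and 127 dorsal reads and was 2.59-fold higher (log2 1.37, interval 1.10 to 1.66). With the length trend removed these log2 ratios were 0.89, 0.45 and 0.65, none of which reached 2-fold.

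The ABCB1 rows were 3 in number and adjacent in the table, and whether they are separate genes or pieces of fewer loci cannot be told from it. Csa3G740230 had 2073 ventral and 581 dorsal reads and an exonic length of 4727 bp, and Csa3G740240 had 1139 ventral and 376 dorsal reads and an exonic length of 810 bp. Their log2 ratios were 0.72 (0.59 to 0.86) and 0.49 (0.32 to 0.66), below that of the third row. With the length trend removed they changed order, to -0.24 for the long row and 0.96 for the short one. Csa3G740240 had the highest RPKM of the auxin genes in the ventral library, 63.8, against 38.0 in the dorsal library. The second ABCB19 copy (Csa7G448750) was scarce, with 32 ventral and 16 dorsal reads, and its log2 ratio of -0.11 (-1.02 to 0.85) became -1.02 with the length trend removed, at which it was dorsal-high. A short ABCB4 copy (Csa3G418770) had 6 ventral reads and 1 dorsal read.

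**Figure D3:**
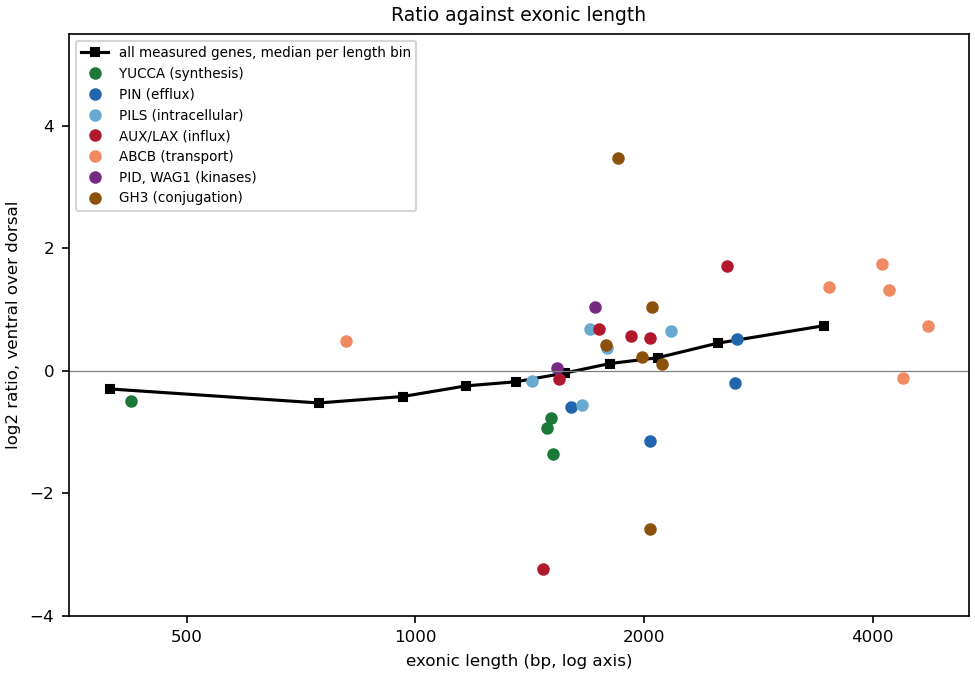
The log2 ratio of reads, ventral over dorsal, is plotted against exonic length (bp, log axis) for 33 of the 36 measured auxin genes, coloured by family, with a black line for the median of all measured genes in 10 bins of length. The long ABCB genes lie at the right where the line is highest, and the extremes GH3.1, GH3.17 and LAX2 lie far from the line at middle lengths.

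The measured auxin genes had a median exonic length of 1956 bp, against 1465 bp for all measured genes, and the ABCB copies one of 4154 bp. The Spearman correlation of exonic length and log2 ratio was 0.43 across the 36 auxin genes and 0.39 across the 17462 measured genes. These points share their libraries, so both values are descriptions. What sets the trend was not tested.

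Of 5 measured PILS carriers 0 were ventral-high and 0 dorsal-high, beside 13.2% and 11.5% of all measured genes. PILS2 (Csa5G571470, chromosome 5) was the most abundant, with 1275 ventral and 456 dorsal reads, 32.4 RPKM ventral and 20.9 RPKM dorsal, and a log2 ratio of 0.37 (0.22 to 0.53). PILS7 (Csa3G000170) with 1114 ventral and 323 dorsal reads and PILS6 (Csa4G337340) with 990 ventral and 293 dorsal reads had log2 ratios of 0.68 and 0.65, or 0.63 and 0.38 with the length trend removed. PILS1 (Csa4G664490), with 635 ventral and 433 dorsal reads, had one of -0.56. The other PILS7 copies, Csa3G000180 and Csa3G000690, were scarce, with 29 and 12 ventral and 15 and 2 dorsal reads.

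Among the kinases that phosphorylate PIN proteins, PID (PINOID, AT2G34650; Csa1G537400, chromosome 1) had 856 ventral and 193 dorsal reads, at 22.5 RPKM ventral and 9.16 RPKM dorsal. It was 2.05-fold higher in the ventral library (log2 1.04, interval 0.81 to 1.27), and 1.97-fold, just short of 2-fold, with the length trend removed. WAG1 (Csa4G064100), a related kinase, had 109 ventral and 49 dorsal reads and a log2 ratio of 0.04 (-0.46 to 0.56).

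GH3 genes, which inactivate or store IAA as conjugates, had the widest spread of ratios within a family, with 2 of 6 measured copies ventral-high and 1 dorsal-high. Over all measured genes the shares were 13.2% ventral-high and 11.5% dorsal-high. GH3.1 (AT2G14960; Csa6G492310, chromosome 6), an IAA-amido synthetase of the auxin-conjugating group, had 478 ventral and 20 dorsal reads, at 11.7 RPKM ventral and 0.92 RPKM dorsal. It was 11.1-fold higher in the ventral library (log2 3.47, interval 2.82 to 4.19), and 10.2-fold with the length trend removed. GH3.17 (AT1G28130; Csa4G007100, chromosome 4), which joins IAA to glutamate in Arabidopsis, had 132 ventral and 367 dorsal reads, at 2.94 RPKM ventral and 14.7 RPKM dorsal. It was dorsal-high at a log2 ratio of -2.59 (-2.88 to -2.30), and at -2.79 with the length trend removed.

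Pooled over its 9 copies the family had 1239 ventral and 592 dorsal reads. The log2 ratio was -0.05, with an interval of -0.19 to 0.10 that included a ratio of 1. The makeup of these reads differed between the libraries. GH3.1 (Csa6G492310) took 38.6% of GH3 reads in the ventral library (35.9 to 41.4) and 3.38% in the dorsal library (2.08 to 5.17). GH3.17 took 10.7% in the ventral library (8.99 to 12.5) and 62.0% in the dorsal library (57.9 to 65.9). These shares do not depend on the scaling of the libraries, and their intervals cover counting error only.

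**Figure D4:**
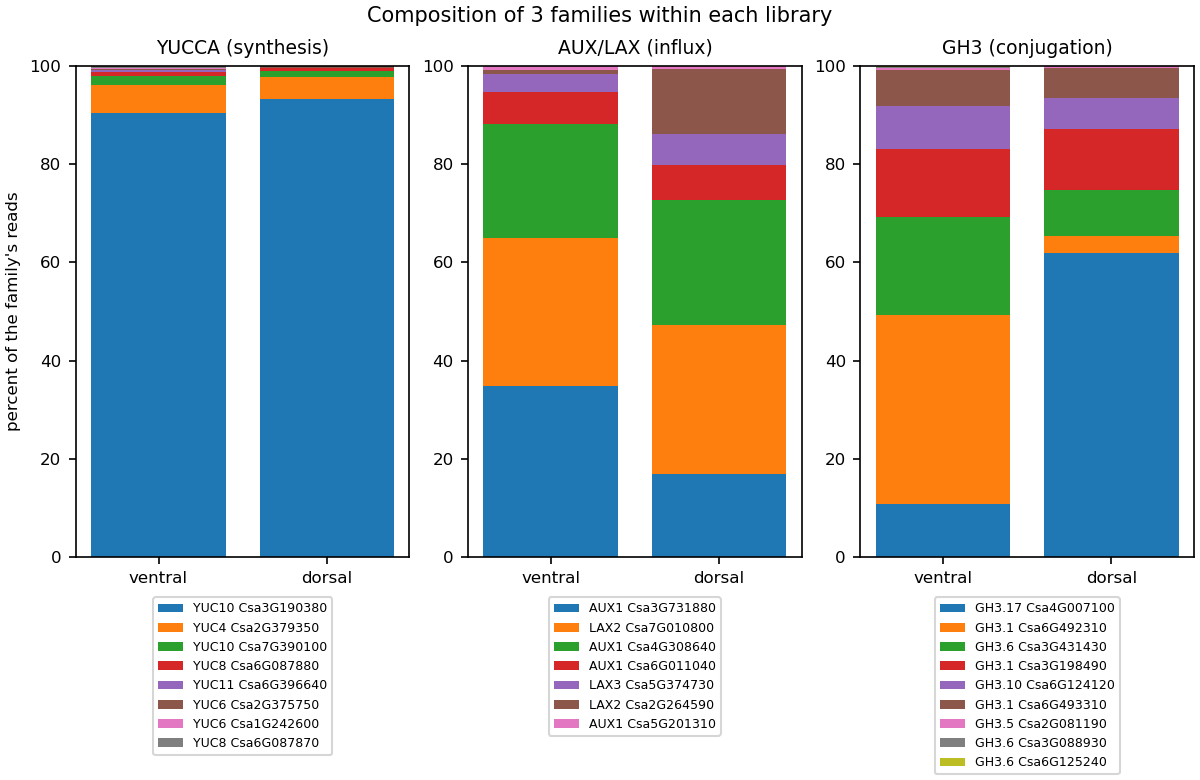
Stacked bars give the percent of the reads of the YUCCA, AUX/LAX and GH3 families that each copy took, ventral library at the left and dorsal at the right of each panel. In the GH3 panel GH3.17 takes 10.7% of ventral and 62.0% of dorsal reads, whereas in the YUCCA panel 1 YUC10 copy takes 90.4% of ventral and 93.4% of dorsal reads.

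The other GH3.1 copies did not share the excess. Csa6G493310, the next identifier in the table after Csa6G492310, had 91 ventral and 36 dorsal reads and a log2 ratio of 0.23 (-0.34 to 0.83). Csa3G198490 had 171 ventral and 73 dorsal reads and a log2 ratio of 0.12 (-0.29 to 0.53). Both intervals lie below that of Csa6G492310. Reads that match more than 1 copy could have been split between copies in the authors' counting, which the sources used here do not describe.

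GH3.6 (AT5G54510; Csa3G431430, chromosome 3), also an IAA-amido synthetase, had 248 ventral and 56 dorsal reads. It was 2.05-fold higher in the ventral library (log2 1.04, interval 0.61 to 1.48), but 1.78-fold, short of 2-fold, with the length trend removed. GH3.10 (Csa6G124120) had 110 ventral and 38 dorsal reads and a log2 ratio of 0.42 (-0.12 to 0.99). GH3.5 (Csa2G081190) had 4 ventral and 2 dorsal reads, and the remaining GH3.6 copies, Csa3G088930 and Csa6G125240, had 4 ventral reads and 1 ventral read and 0 dorsal reads. No gene carried the DAO1 locus, and oxidation of IAA was not analysed here. The further listed loci with no cucumber row were YUC1, YUC2, YUC3, YUC5, YUC7 and YUC9, PIN4, PIN5 and PIN6, PILS3, PILS4 and PILS5, LAX1, WAG2, D6PK, and GH3.2, GH3.3, GH3.4 and GH3.9, also not analysed here. Each cucumber gene is assigned to 1 Arabidopsis locus in the table, so a missing locus does not show that the function is missing.

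Both as counted and with the length trend removed, 2 genes were ventral-high, GH3.1 (Csa6G492310) and AUX1 (Csa3G731880). In the same way 4 were dorsal-high, namely LAX2 (Csa2G264590), GH3.17 (Csa4G007100), YUC10 (Csa3G190380) and PIN2 (Csa1G427480). LAX2 and PIN2 rest on few reads, and PIN2 was short of 2-fold with total reads and with RPKM ratios.

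Other genes of auxin supply and transport were taken from lists by locus. Of 59 measured copies among 68, 11 were ventral-high and 6 dorsal-high, with a median of 0.18. These are 18.6% and 10.2%, beside 13.2% and 11.5% of all measured genes. After removal of the length trend 5 were ventral-high and 5 dorsal-high, or 8.47% each, beside 10.9% and 8.34% of all measured genes, and the median was -0.13. Shares this near the background are not a result about these lists, and the values below describe single copies. Conjugate hydrolases, which free IAA from its amino acid conjugates, had 1 of 7 ventral-high and 1 dorsal-high. Both were homologues of IAR3, an IAA-alanine hydrolase, namely Csa3G850490 with 960 ventral and 184 dorsal reads (log2 1.27, interval 1.04 to 1.51) and Csa5G603370 with 323 ventral and 303 dorsal reads (log2 -1.02, interval -1.25 to -0.79). With the length trend removed Csa3G850490 was still ventral-high and Csa5G603370, at -0.97, was short of 2-fold. Another IAR3 copy, Csa1G575150, had 540 ventral and 412 dorsal reads and a log2 ratio of -0.72 (-0.91 to -0.53), short of 2-fold.

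Transport helpers had 4 of 17 ventral-high (23.5%) and 0 dorsal-high, beside 13.2% and 11.5% of all measured genes, with a median of 0.58. Removing the length trend left 0 of these 4 called, and the median was 0.16. The 1 copy that was then ventral-high was one of WAT1 (Csa3G865390), a vacuolar auxin transporter, with 236 ventral and 61 dorsal reads. Its log2 ratio was 0.84 as counted, and just past 2-fold with the trend removed. The WAT1 copy with the most reads, Csa2G363030, had 2425 ventral and 1345 dorsal reads. Its log2 ratio was -0.26 (-0.36 to -0.16), and -0.09 with the trend removed. By the interval bound nearest a ratio of 1, the first 3 of the 4 ventral-high as counted were BIG, D6PKL3 and PP2AA2. BIG (Csa5G642140), a very large protein needed for auxin transport, had 1184 ventral and 138 dorsal reads and a log2 ratio of 1.99, but 0.19 with the length trend removed. D6PKL3 (Csa3G840350), a relative of the PIN kinase D6PK, and PP2AA2 (Csa5G608520), a subunit of the phosphatase that counters PID, were ventral-high at 2.47-fold and 2.28-fold, with log2 ratios of 0.77 and 0.82 once the length trend was removed.

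Further ABC transporters had 4 of 14 ventral-high (28.6%) and 0 dorsal-high, beside 13.2% and 11.5% of all measured genes, with a median of 0.70. With the length trend removed 1 was ventral-high and 1 dorsal-high (7.14% each), beside 10.9% and 8.34%. ABCG36 (Csa3G446120), which in Arabidopsis exports the auxin precursor indole-3-butyric acid (IBA), had 262 ventral and 16 dorsal reads and a log2 ratio of 2.92 (2.20 to 3.75), and 1.97 with the length trend removed. A copy of ABCG37 (Csa3G814320), an exporter of the same precursor, and ABCB21 (Csa2G074190) had log2 ratios of 1.38 and 1.33, both under 2-fold with the length trend removed, at 0.48 and 0.51. The ABCG37 copy with the most reads, Csa3G813820, had 223 ventral and 121 dorsal reads and a log2 ratio of -0.23 (-0.55 to 0.10), and at -1.13 it was the 1 of these transporters dorsal-high with the length trend removed.

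Genes that turn IBA into IAA had 0 of 6 ventral-high and 2 dorsal-high, beside 13.2% and 11.5% of all measured genes, with a median of -0.41. With the length trend removed 0 were ventral-high and 1 dorsal-high, beside 10.9% and 8.34%, and the median was -0.38. Both copies dorsal-high as counted were of IBR10, an enzyme of that route. Csa3G141790 had 184 ventral and 430 dorsal reads and a log2 ratio of -2.34 (-2.59 to -2.08), and Csa3G141770 had 36 ventral and 37 dorsal reads and a log2 ratio of -1.15 (-1.85 to -0.45), at -0.73 with the length trend removed. The IBR10 copy with the most reads, Csa3G141780, had 594 ventral and 242 dorsal reads and a log2 ratio of 0.18 (-0.03 to 0.41). These IBR10 rows have neighbouring identifiers, and Csa3G141790 has an exonic length of only 477 bp. Whether they are separate genes or pieces of fewer loci cannot be told. Among 5 genes of tryptophan synthesis, the supply of the IAA precursor, PAI1 (Csa5G207950) was dorsal-high, with 612 ventral and 718 dorsal reads and a log2 ratio of -1.34 (-1.50 to -1.18). The 4 measured genes of other indole routes held none called either way, with a median of -0.37.

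Genes of IAA glucosylation and methylation had 2 of 6 ventral-high and 2 dorsal-high (33.3% each), beside 13.2% and 11.5% of all measured genes. With the length trend removed the same copies were called, beside 10.9% and 8.34% of all measured genes. The glucosyltransferase UGT74E2, which in Arabidopsis acts on IBA, had scarce copies on both sides. The copy with the most reads, Csa6G366280, had 807 ventral and 563 dorsal reads, 22.3 RPKM ventral and 28.1 RPKM dorsal, and a log2 ratio of -0.59 (-0.75 to -0.43), short of 2-fold. Csa6G366250 had 22 ventral and 2 dorsal reads and a log2 ratio of 2.35 (0.32 to 5.48), and Csa3G592690 had 21 ventral and 0 dorsal reads, and the lower bound of its counting interval was a log2 ratio of 1.27. Csa6G418930 had 16 ventral and 22 dorsal reads and a log2 ratio of -1.57 (-2.60 to -0.57). MES17 (Csa5G645150), which cleaves methyl-IAA, had 17 ventral and 44 dorsal reads and a log2 ratio of -2.48 (-3.38 to -1.65).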

How the data were processed

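RNA from 1 ventral and 1 dorsal library was prepared with DNase treatment, poly(A) capture and a directional protocol, per the labels' protocols. Per the submitters' processing notes, TopHat2 and edgeR were among the tools. Their versions, the genome build and how reads were counted or assigned to strands are not stated in the labels or headers. The authors deposited whole-number read counts per gene without normalization, and RPKM values scaled by exonic length and depth. Gene length in bp is deposited beside them. It can exceed the exonic length behind RPKM, as for YUC10 (Csa3G190380) at 3834 bp against 1518 bp.

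From the counts, TMM factors (edgeR 4.0.16, R 4.3.3) were computed on genes with at least 20 reads over both libraries, which gave a ventral to dorsal depth ratio of 2.16. Exact conditional binomial 95% intervals (SciPy 1.17.1) were computed for every gene. They and the floor of 3 reads for a library at 0 (0.137 CPM ventral, 0.252 dorsal) cover counting error only. Exonic length was taken from reads over RPKM, with its constant set on genes whose length equals the listed one. The length trend was a lowess fit (fraction 0.3, statsmodels 0.14.6) of the log2 ratio on log10 exonic length over all measured genes. With 1 library per side no test was made. The code was tested on simulated data.

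Members, lists and the rule for named genes were chosen with earlier results of these data known. The members are named, apart from 3 that are in the counts but not reported here. Of the other auxin lists, ventral-high and dorsal-high genes are named, up to 3 per direction per list by the interval bound nearest a ratio of 1. WAT1 (Csa3G865390), the IAR3 copy Csa1G575150 and the WAT1, ABCG37, IBR10 and UGT74E2 copies with the most reads were added after their values were seen. The same holds for the markers CESA4, LHCB1.3, PSBW, LHCA1, PSAF, ANT and TT8. The tables hold a chromosome but no start and end positions. The RefSeq gene table at hand matched 0 of the identifiers, so no sequence or annotation is given. Alternatives tried were DESeq2 1.42.0 size factors, total reads, RPKM ratios, other read minimums, a 99% interval, 1.5-fold and removal of the length trend.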

Additional observations from a re-analysis of the deposited data

How the results depend on the processing

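No paired analysis was possible because there is a single library for the ventral and for the dorsal side. The counts of 7 ventral-high and 4 dorsal-high auxin genes and their median log2 ratio of 0.17 were the values compared. With total reads the median was 0.40, and with RPKM ratios it was 0.42 at a pseudocount of 0.1 and 0.30 at a pseudocount of 1. Total reads raise each log2 ratio by 0.23, and RPKM raises it by 0.26 before a pseudocount is added. A minimum of 100 reads left 29 of the 36 genes, and the 7 left out all had ratios below 1. The median was then 0.49, and 2 dorsal-high genes remained, since PIN2 (Csa1G427480) and LAX2 (Csa2G264590), with 73 and 86 reads in all, were among the 7. At 1.5-fold 11 ventral-high and 8 dorsal-high genes were called. With the length trend removed 2 were ventral-high and the median was 0.0075. DESeq2 size factors, a minimum of 1 read and a 99% interval kept both counts within 1.5 times and the median within 0.1. PIN2 was short of 2-fold with total reads and with RPKM ratios, and GH3.6 (Csa3G431430) with RPKM ratios at a pseudocount of 1, at 0.99. No called gene changed direction under these alternatives. The 11 genes below 20 reads are limited by depth.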
